A study of Mus musculus with 6 samples.

Results

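Transcripts of multicopy gene families that mark 2-cell-like mouse embryonic stem (ES) cells were followed in cells with and without extra Prmt6, over 91 of the 35556 probe sets of a whole-transcript array. A probe set was a member if any gene symbol in its platform annotation began with Pramel, Pramef, Usp17l, Tdpoz, Tcstv or Zscan4, or was Zfp352, Tmem92 or Eif4a3l1. The 91 members name 51 such symbols. Of the members, 27 carry 1 symbol and 64 carry several, so that their signal cannot be split between near-identical copies. Identical values on all 6 arrays occur among members, which hold 75 distinct profiles. The families were picked because of how they differed between these same arrays. Their differences are therefore given as a description, with no test.

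In the mouse embryo the zygotic genome is first transcribed at the 2-cell stage, and a set of young, tandemly duplicated genes is switched on briefly then. A small and changing fraction of ES cells in culture passes through a similar state, in which the transcription factor Dux, written Duxf3 in the annotation used here, activates many of these genes. Zscan4 genes encode SCAN-domain zinc finger proteins linked to telomere maintenance, Usp17l genes encode deubiquitinating enzymes, Tdpoz genes encode proteins with TRAF and POZ domains, and Pramel genes encode leucine-rich repeat proteins.

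The study profiled HM1 cells, a mouse ES cell line, grown in 15% serum with LIF, a cytokine that holds these cells undifferentiated. The control group (3 arrays) carried the pCAGIP.puro empty vector, and the Prmt6 overexpression group (3 arrays) carried the same vector with mouse Prmt6, a nuclear arginine methyltransferase. Both groups were selected with puromycin (1 ug/ml) for 3 days after transfection, so every sample is a selected population and not a clone. Separate cultures are not stated for the replicates, and p-values here rest on array-to-array spread that may be technical in origin. Values are log2 signals, and the number of arrays limits their precision.

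Prmt6 itself was read by 1 probe set, at 6.84, 6.58 and 7.12 in control and 7.32, 7.40 and 7.33 in overexpression. The groups did not overlap, and the difference was 0.50 ± 0.14 (log2, SE, n = 3 per group), with a limma adjusted p of 0.112 over all probe sets. It passed the threshold of 0.05 when probe sets under the median level were left out (adjusted p = 0.0416), with 1 probe set an annotation (0.0408) and with single-symbol probe sets alone (0.0409). The place of this probe set in the transcript, and so whether the plasmid contributes to its signal, was not analysed here. The 15 ES cell markers held a median difference of -0.01, with summed log2 levels from 149.26 to 150.01 in control and from 149.16 to 149.35 in overexpression. Nanog (-0.34, limma adjusted p = 0.0386) and Tdgf1 (-0.35, 0.0469) fell, and Tfcp2l1 rose (0.37, 0.0317). Some markers of other cell types rose in the overexpression arrays. Of 11 measured fibroblast markers 3 rose (summed log2 level 55.27 to 56.40 in control, 59.37 to 61.18 in overexpression) (Col1a1 by 1.34, Col1a2 by 0.98 and Pdgfrb by 0.47). Differences in that list ran from -0.10 to 1.34 with a median of 0.22. Thy1 differed by 0.04 and Lum by 0.06, the latter from a control mean of 2.59, which is low for this array. Of 12 primitive endoderm markers 6 rose (72.05 to 73.24 against 79.16 to 79.58) and of 10 trophoblast markers 5 rose (63.50 to 63.88 against 71.74 to 72.73). The keratins Krt18 (3.22) and Krt8 (2.89) make up most of the rise in the summed trophoblast level. Gata3 (0.52), Cdx2 (0.26), Ascl2 (-0.06), Tfap2c (-0.22) and Elf5 (-0.25) did not pass. The median differences of the primitive endoderm and trophoblast lists were 0.48 and 0.54, with the lowest members at -0.15 and -0.25. In these 3 lists 0 markers fell (limma, with 0, 0 and 1 lower at an unadjusted p under 0.05). Log2 array signals have no true 0, so absence of a marker is not read from them. Their part in the differences below was not tested.

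Most members had less signal with the Prmt6 plasmid. The median difference over the 91 members, overexpression minus control, was -0.70 on the log2 scale, where the median over all probe sets was -0.02 and the middle 90% lay between -0.48 and 0.40. Differences ran from -2.07 to 0.54, with 82 members below 0 and 9 above. In 61 members all 3 overexpression arrays were lower than all 3 control arrays (13.0% of all probe sets were), in 2 they were all higher (13.1%), and in 28 the groups overlapped. At a limma adjusted p under 0.05, 48 members were lower (2.01% of all probe sets were) and 1 was higher (3.04%), so that 42 were not called. In either direction 5.05% of all probe sets were called, and 19.8% had an unadjusted p under 0.05. Since the families were chosen from this contrast, nothing is read from these shares. In bulk RNA, fewer cells in the 2-cell-like state and less RNA per such cell cannot be told apart.

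The several-symbol members had a median difference of -0.72, and 37 of 64 were called lower. The 27 single-symbol members had a median of -0.42, with 11 called lower and 1 higher. With identical profiles counted once, the median over 75 profiles was -0.52, with 47 non-overlapping and lower. Over all probe sets 2.01% were called lower, 3.04% were called higher and 13.0% were non-overlapping and lower. Nothing is read from these counts either, since the families were chosen from this contrast. Members took 14 places (12 distinct profiles) among the 100 largest falls over all probe sets, and probe sets without a gene name took 53. In the plot of differences by annotation, those within the Pramel family ranged from the lowest to the highest value.

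**Figure D1:**
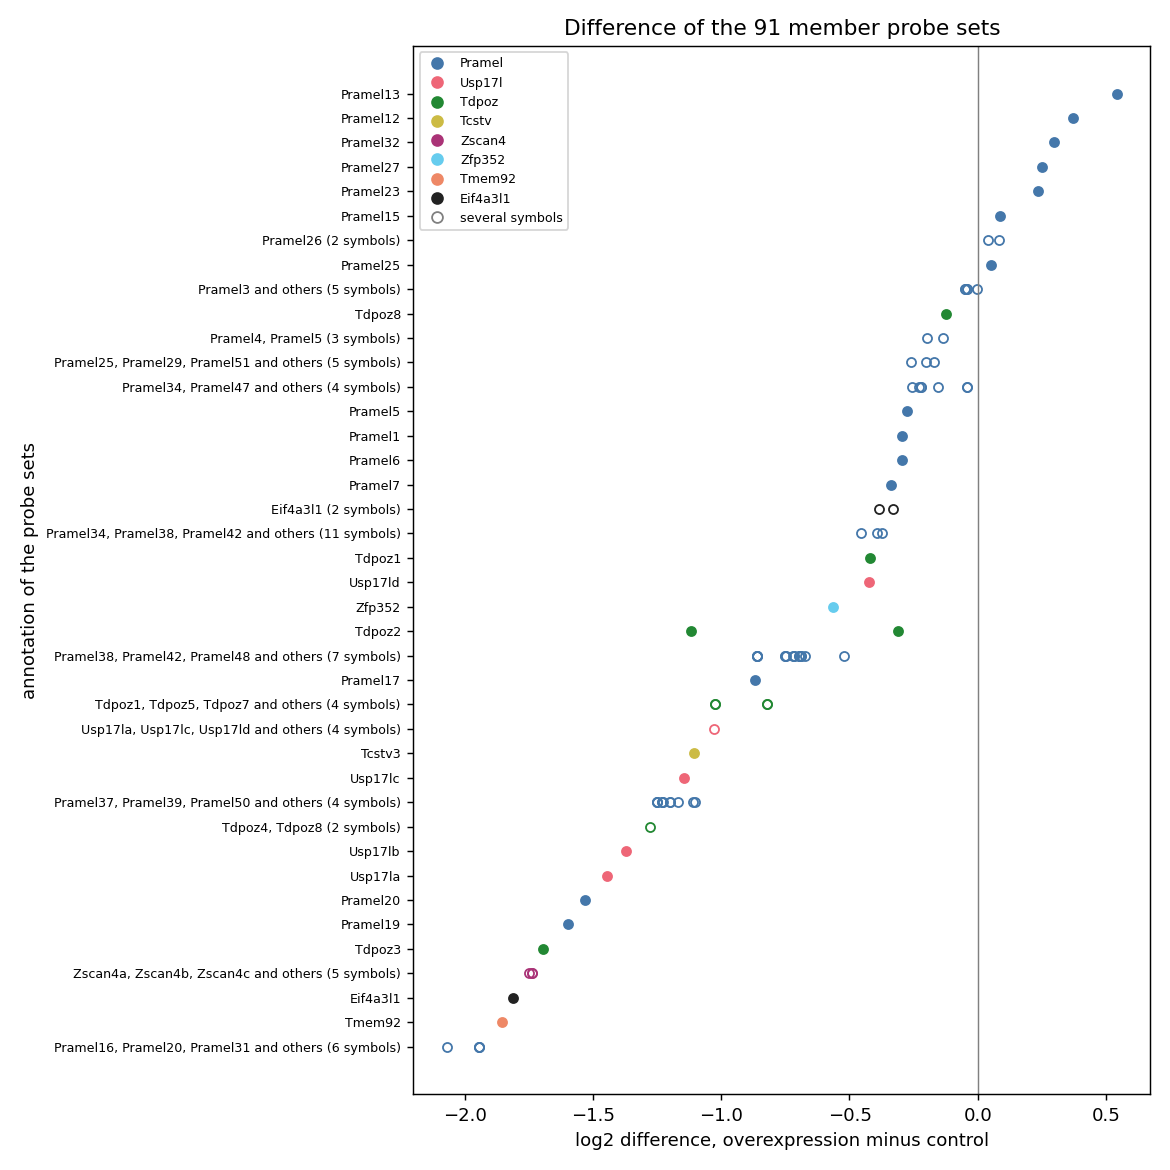
Log2 difference (overexpression minus control, n = 3 arrays each) of each of the 91 member probe sets, 1 row per annotation and ordered by the median of the row. Filled points are probe sets with 1 symbol and open points those with several, coloured by family. Values run from -2.07 in the Pramel20 group to 0.54 in Pramel13.

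The Zscan4 genes were read by 3 probe sets, each annotated to Zscan4a, Zscan4b, Zscan4c, Zscan4d and Zscan4f together. The brightest read 12.03, 11.93 and 12.01 in control and 10.20, 10.35 and 10.21 in overexpression. Another read 11.30, 11.24 and 11.32 against 9.54, 9.61 and 9.49. The last read 11.01, 10.94 and 11.02 against 9.22, 9.31 and 9.19. The groups were far apart in all 3, with little spread among the arrays of a group. The differences were -1.74 ± 0.075, -1.74 ± 0.069 and -1.75 ± 0.069 (log2, SE, n = 3 per group), or 3.33-fold to 3.36-fold less signal. Of 9 Zscan4 symbols in the reference 5 are named on the array and 0 have a probe set of their own, so that which of the 5 copies changed is not resolved.

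The stretches before the annotated starts of Zscan4 genes are shown because these copies are so alike there. Of 6 pairs of Zscan4 promoters (250 bases before to 50 bases after the start, RefSeq, GRCm38.p6), identity ran from 86.3% to 95.7%. All sequences here are the 150 bases before the start, written 5′ to 3′ on the gene's strand, and capitals mark TATAAA, the core of a TATA box. The Zscan4c stretch is chr7:11005595-11005744 (plus strand), that of Zscan4d chr7:11166149-11166298 (minus strand) and that of Zscan4f chr7:11397765-11397914 (plus strand).
Zscan4c: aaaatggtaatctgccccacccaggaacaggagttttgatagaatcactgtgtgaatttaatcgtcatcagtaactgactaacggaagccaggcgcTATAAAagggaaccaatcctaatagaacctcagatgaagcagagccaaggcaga
Zscan4d: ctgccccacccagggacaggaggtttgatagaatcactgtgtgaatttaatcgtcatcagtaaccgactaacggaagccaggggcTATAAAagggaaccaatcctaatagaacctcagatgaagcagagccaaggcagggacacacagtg
Zscan4f: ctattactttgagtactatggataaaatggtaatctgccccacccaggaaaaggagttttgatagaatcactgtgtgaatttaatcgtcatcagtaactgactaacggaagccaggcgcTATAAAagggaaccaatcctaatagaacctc
TATAAA, searched on both strands of the 300-base windows, occurred in 4 of 4 Zscan4 promoters, in 20 of 55 member promoters and in 13.6% of 32851 promoters. The letters CCAAT occurred in 36 of 55 member promoters and 37.4% of all. Both motifs were chosen after the values of the members were known. A match is a description of letters, and a missing match says only that these letters are not in this window.

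The 4 genes outside the large families, Tmem92, Tcstv3, Zfp352 and (next paragraph) Eif4a3l1, also read lower on their own probe sets. Tmem92, a predicted membrane protein gene of the 2-cell stage, read 6.44, 6.77 and 6.49 in control and 5.11, 4.51 and 4.51 in overexpression, a difference of -1.86 ± 0.19. Tcstv3, a 2-cell-stage transcript from a cluster on chromosome 13, read 5.90, 5.26 and 5.41 against 4.48, 4.34 and 4.43 (-1.11 ± 0.17). Zfp352, a zinc finger gene of the early embryo, read 5.52, 5.40 and 5.30 against 4.80, 4.84 and 4.89 (-0.56 ± 0.081). None of these 3 overlapped between groups, and control replicate 1 stood above the other controls for Tcstv3.

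Eif4a3l1 is a copy of Eif4a3, the RNA helicase at the core of the exon junction complex. Its own probe set read 8.08, 7.98 and 8.11 in control and 6.46, 6.46 and 5.81 in overexpression (-1.81 ± 0.19, 3.51-fold less signal). A pair of probe sets annotated to both Eif4a3l1 and Eif4a3 differed by -0.38 ± 0.081 and -0.33 ± 0.079, also without overlap. Eif4a3 on its own probe set read 9.15, 9.27 and 9.22 against 9.26, 9.21 and 9.15, and the groups overlapped (-0.01 ± 0.071, limma adjusted p = 0.974). The copy thus read lower where its own probes were used, and the parent gene did not pass the test.

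**Figure D2:**
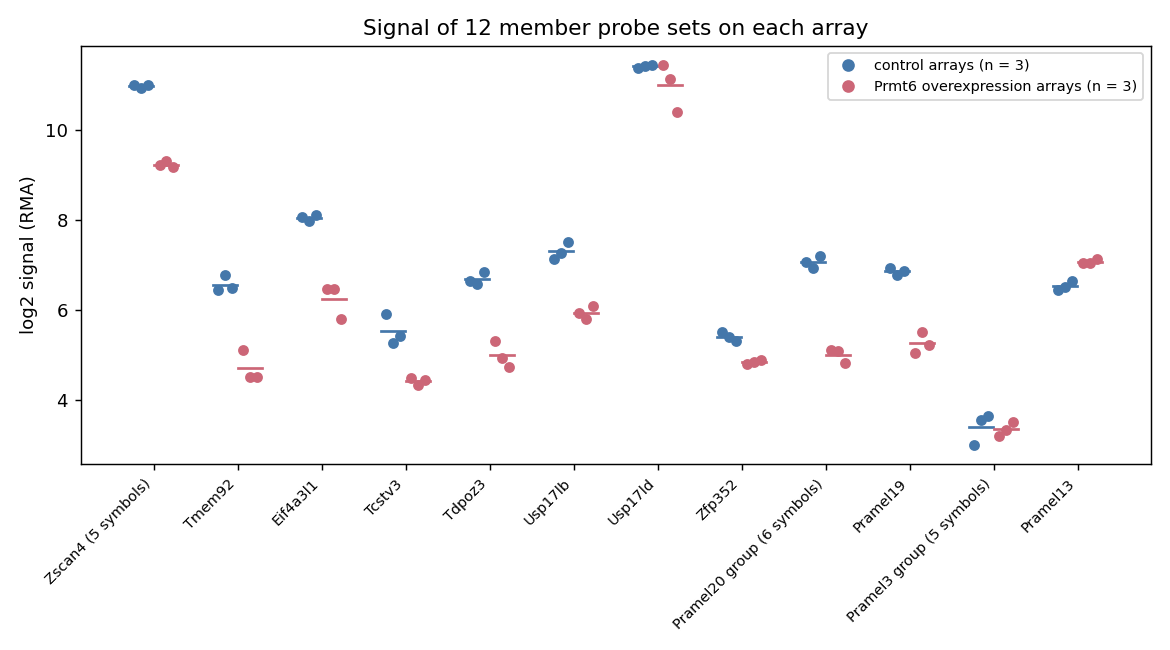
Log2 signal of 12 member probe sets on each of the 3 control (blue) and 3 overexpression (red) arrays, with the mean of each group as a line. Groups are apart in 10 of the 12, with Pramel13 the only one of them higher in overexpression, and overlap in Usp17ld and the Pramel3 group.

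The starts of Zfp352 and Eif4a3l1 are shown because they share a string of letters, capitalised here, that also lies before other 2-cell-stage genes. The Zfp352 stretch is chr4:90218670-90218819 (plus strand), that of Eif4a3l1 chr6:136327389-136327538 (plus strand), that of Pramel17 chr4:101844023-101844172 (minus strand), that of Gm4340 chr10:104193892-104194041 (plus strand) and that of Sp110 chr1:85603892-85604041 (minus strand), all from RefSeq on GRCm38.p6.
Zfp352: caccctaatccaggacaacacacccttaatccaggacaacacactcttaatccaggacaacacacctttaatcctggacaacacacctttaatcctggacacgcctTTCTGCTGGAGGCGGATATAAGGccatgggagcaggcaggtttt
Eif4a3l1: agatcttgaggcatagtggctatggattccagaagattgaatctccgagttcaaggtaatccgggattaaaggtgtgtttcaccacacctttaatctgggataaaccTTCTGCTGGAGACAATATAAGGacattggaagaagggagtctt
Pramel17: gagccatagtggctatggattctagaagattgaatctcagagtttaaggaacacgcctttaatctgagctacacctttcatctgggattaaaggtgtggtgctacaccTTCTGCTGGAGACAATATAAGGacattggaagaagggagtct
Gm4340: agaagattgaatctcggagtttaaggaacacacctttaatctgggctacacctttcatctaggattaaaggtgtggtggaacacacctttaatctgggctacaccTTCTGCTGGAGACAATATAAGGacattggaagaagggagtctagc
Sp110: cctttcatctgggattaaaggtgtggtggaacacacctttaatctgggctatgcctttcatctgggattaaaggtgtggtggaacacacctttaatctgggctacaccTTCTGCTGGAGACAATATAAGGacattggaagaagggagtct
The capitals mark TTCTGCTGGAGNNNATATAAGG, or TTCTGCTGGAGNNNNATATAAGG in Zfp352, which join the longest run of letters that the last 60 bases of both stretches share to the longest shared run after it. The string was searched for after the Zfp352 and Eif4a3l1 sequences had been read and after 3 looser patterns had been tried, which matched 25, 27 and 58 promoters on the gene's strand. On both strands 26 of 32851 promoters (0.0791%) held it, belonging to 25 symbols, of which 16 have a probe set. Those 16 symbols were read by 10 distinct probe sets, since some symbols share a probe set. In the printed stretches it begins between -45 and -42, counting the base before the start as -1. The 4 stretches other than Zfp352 have 73.3% to 88.7% identity with each other over the whole 150 bases, the string included.

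Genes with this string did not all differ alike. Among members it precedes Eif4a3l1, Zfp352, Pramel17 (-0.87 ± 0.19) and Pramel4, whose shared probe set differed by -0.20 ± 0.13 and overlapped between groups. Outside the members, a probe set shared by Gm4340 and 8 other symbols read 11.52, 11.51 and 11.53 in control and 9.76, 9.69 and 9.88 in overexpression (-1.74 ± 0.075, limma adjusted p = 0.000181). A probe set shared by Sp110, a nuclear body protein gene, fell by 1.26 (adjusted p = 0.00475). Arih2 (-0.14, 0.318), Sgk1 (0.29, 0.0956), Pemt (-0.18, 0.250) and I0C0044D17Rik (-0.06, 0.902) hold the same string and did not pass the test.

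All 8 Tdpoz symbols of the reference are named on the array, over 10 probe sets on chromosome 3, and the median difference was -0.92. Tdpoz3 read 6.65, 6.57 and 6.85 in control and 5.32, 4.93 and 4.73 in overexpression (-1.70 ± 0.16). The probe set of Tdpoz4 and Tdpoz8 read 6.45, 6.41 and 6.32 against 5.22, 5.08 and 5.05 (-1.28 ± 0.079). Both were well apart between groups. Tdpoz2 has 2 probe sets that differ from each other. The first read 6.32, 6.46 and 6.18 against 4.94, 5.40 and 5.27 (-1.12 ± 0.14), and the second read 4.96, 4.44 and 4.82 against 4.53, 4.27 and 4.49 (-0.31 ± 0.15), with overlap. The 4 probe sets of Tdpoz1, Tdpoz5, Tdpoz7 and Tdpoz9 held 2 profiles, at -1.02 ± 0.11 and -0.82 ± 0.12. Single-symbol probe sets of Tdpoz1 (-0.42 ± 0.16) and Tdpoz8 (-0.12 ± 0.27) overlapped between groups, so the 3 overlapping probe sets of the family all carry 1 symbol. Spop and Spopl, single-copy genes with the same pair of domains, differed by 0.20 ± 0.13 (limma adjusted p = 0.458) and -0.34 ± 0.14 (0.247).

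The Usp17l family was read by 5 probe sets on chromosome 7, with a median difference of -1.15. Usp17la read 5.66, 5.71 and 5.52 in control and 4.64, 4.11 and 3.80 in overexpression (-1.45 ± 0.21). Usp17lb read 7.14, 7.28 and 7.52 against 5.94, 5.81 and 6.08 (-1.37 ± 0.12). Usp17lc read 6.78, 6.55 and 6.64 against 5.45, 5.72 and 5.36 (-1.15 ± 0.12). In these 3 probe sets every control array was above every overexpression array. The probe set shared by Usp17la, Usp17lc, Usp17ld and Usp17le read 7.03, 7.17 and 7.56 against 6.15, 6.21 and 6.32 (-1.03 ± 0.15). Usp17ld on its own probe set read 11.39, 11.44 and 11.46 against 11.46, 11.15 and 10.41 (-0.42 ± 0.26). There overexpression replicate 1 sat at the control level and replicate 3 well below it. The SD over overexpression arrays was 0.54, against 0.09 to 0.42 in the other Usp17l probe sets. Usp36 and Usp42, single-copy deubiquitinases related to this family, differed by -0.12 (limma adjusted p = 0.451) and -0.20 (0.409).

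The starts of Usp17lb and Usp17ld are shown because these copies share TATAAA, in capitals, and lie far apart in their differences. Promoter identity within the family ran from 68.3% to 89.7% over 6 pairs, and 3 of 4 promoters held TATAAA. The stretches are chr7:104842584-104842733 (minus strand) and chr7:103252506-103252655 (minus strand), from RefSeq on GRCm38.p6.
Usp17lb: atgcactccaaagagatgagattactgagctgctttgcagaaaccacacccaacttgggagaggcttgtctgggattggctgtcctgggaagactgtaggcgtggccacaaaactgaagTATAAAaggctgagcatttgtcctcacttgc
Usp17ld: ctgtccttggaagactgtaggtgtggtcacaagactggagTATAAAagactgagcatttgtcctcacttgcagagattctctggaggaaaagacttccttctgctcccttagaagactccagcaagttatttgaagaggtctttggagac
TATAAA begins at -31 in Usp17lb and at -110 in Usp17ld, relative to the annotated starts.

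The Pramel family was the largest, with 67 probe sets, 53 distinct profiles and 29 of the 48 reference symbols, and the most mixed. Its median difference was -0.52, with 58 probe sets below 0 and 9 above. All 37 probe sets on chromosome 5 were below 0 (median -0.72), against 11 of 20 on chromosome 4 (median -0.17). The 5 probe sets of the Pramel3 group on chromosome X lay between -0.05 and -0.003, with full overlap of the groups.

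On chromosome 4 the lowest values belonged to 4 probe sets, of 2 profiles, annotated to Pramel16, Pramel20, Pramel31 and 3 Gm symbols. The lower profile read 7.07, 6.93 and 7.21 in control and 5.11, 5.08 and 4.81 in overexpression (-2.07 ± 0.12, 4.20-fold less signal). The other read 7.33, 7.19 and 7.46 against 5.53, 5.51 and 5.10 (-1.95 ± 0.14). Pramel20 on its own probe set read 6.02, 6.09 and 6.06 against 4.74, 4.18 and 4.65 (-1.53 ± 0.15), so the single-symbol probe set differed in the same direction as the shared ones. Pramel19 read 6.93, 6.78 and 6.87 against 5.05, 5.52 and 5.22 (-1.60 ± 0.13). Pramel17 read 4.27, 4.52 and 4.75 against 3.98, 3.36 and 3.59, without overlap but with wide spread in both groups.

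Pramel13, also on chromosome 4, was the only member called higher. It read 6.44, 6.52 and 6.64 in control and 7.05, 7.05 and 7.13 in overexpression (0.54 ± 0.079, 1.46-fold more signal). That count was 0 with control replicate 1 or 2, or overexpression replicate 2 or 3, left out. Pramel32 read 4.57, 4.82 and 4.68 against 4.97, 4.97 and 5.02 (0.30 ± 0.084), also without overlap. Pramel12 (0.37), Pramel27 (0.25), Pramel23 (0.24), Pramel15 (0.09) and Pramel25 (0.05) were above 0 with overlapping groups, as was the pair of probe sets of Oog2 and Pramel26 (0.04 and 0.08). Pramel6 and Pramel7, known from the inner cell mass and ES cells, differed by -0.30 ± 0.13 with overlap and by -0.34 ± 0.11 without.

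The starts of Pramel20 and Pramel13, whose own probe sets were lower and higher in overexpression, are shown side by side with that of Pramel50, read only by probe sets it shares with Pramel37, Pramel39 and BC080696. Capitals mark TATAAA. They lie at chr4:143567317-143567466 (plus strand), chr5:95736174-95736323 (minus strand) and chr4:144408465-144408614 (minus strand), from RefSeq on GRCm38.p6.
Pramel20: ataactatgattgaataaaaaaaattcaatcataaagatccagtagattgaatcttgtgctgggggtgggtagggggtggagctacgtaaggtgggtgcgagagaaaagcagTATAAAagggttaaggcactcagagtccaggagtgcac
Pramel50: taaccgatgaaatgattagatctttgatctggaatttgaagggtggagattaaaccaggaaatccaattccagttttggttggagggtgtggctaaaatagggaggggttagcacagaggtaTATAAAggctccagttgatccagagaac
Pramel13: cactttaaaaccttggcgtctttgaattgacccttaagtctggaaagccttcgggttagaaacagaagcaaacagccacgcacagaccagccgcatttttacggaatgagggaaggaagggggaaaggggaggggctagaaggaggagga
TATAAA begins at -38 in Pramel20 and -28 in Pramel50, and the Pramel13 stretch holds none. Of 38 Pramel promoters 13 held it, and over 703 pairs promoter identity started at 44.7%, and Pramel37 and Pramel50 were identical over 300 bases.

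The chromosome 5 probe sets fell into bands by annotation. The 11 probe sets of Pramel37, Pramel39, Pramel50 and BC080696 differed by -1.25 to -1.10 from control means between 6.14 and 6.74, and all 11 were called lower. The 3 probe sets with the lowest value there share the profile 6.68, 6.59 and 6.71 against 5.50, 5.46 and 5.27. The 16 probe sets of Pramel38, Pramel42, Pramel48 and 4 other symbols differed by -0.86 to -0.52, and 13 were called lower. The 3 probe sets with 11 symbols differed by -0.46 to -0.37. The 7 probe sets of Pramel34, Pramel47, Gm6367 and AA792892 differed by -0.26 to -0.04 from control means between 2.51 and 2.80, with overlap in each. Bands with smaller differences thus also had lower control signals. Over all probe sets 2.01% were called lower, and the counts of calls here are a description, since the families were chosen from this contrast.

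Across the 75 distinct member profiles, the control mean and the difference had a Spearman rho of -0.755 and a Pearson r of -0.615, given as a description over points that share the 6 arrays and, in part, probes. The control mean also enters the difference. Members with a mean level over the 6 arrays at or above the median of all probe sets (5.57) numbered 34, had a median difference of -1.21 and included 31 that were non-overlapping and lower. The 57 members below that level had a median of -0.31, with 30 non-overlapping and lower. Over all probe sets 13.0% were non-overlapping and lower, a share not split by level here. Whether other probe sets show the same contrast between levels was not tested. Signals of different probe sets depend on their probes as well as on RNA, and a low signal is not separated here from background.

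**Figure D3:**
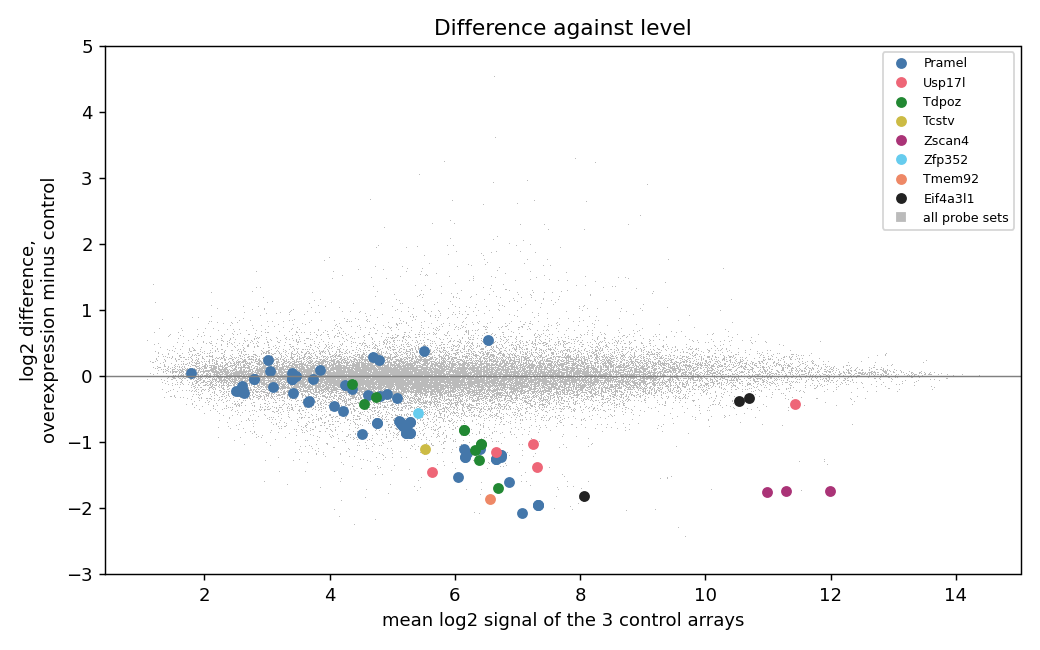
Log2 difference (overexpression minus control) against the mean log2 signal of the 3 control arrays, with all 35556 probe sets as grey dots and the 91 members as coloured points by family. Members with the lowest control signals lie near the zero line, and the lowest differences lie at control signals above 6.

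The arrays of a group also differed among themselves. Over the 47 distinct profiles that were non-overlapping and lower, overexpression replicate 1 was the highest of its group in 32, with a median deviation from the group mean of 0.11. Replicate 2 was highest in 9 and replicate 3 in 5, and replicate 3 was lowest in 21. In control, replicate 2 was lowest in 26. Profiles share probes and arrays, so these counts are not independent of each other.

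Other transcripts of the 2-cell stage, outside the member families, were tested gene by gene. Of 24 listed, 7 have a probe set of their own, and 3 fell, 0 rose and 4 did not pass (limma, with 5 lower and 0 higher at an unadjusted p under 0.05), with a median difference of -0.68. Gm5662 read 9.60, 9.50 and 9.59 in control and 7.20, 7.53 and 7.05 in overexpression (-2.30 ± 0.13, limma adjusted p = 0.000439). AF067061 read 7.64, 7.50 and 7.69 against 5.87, 5.85 and 5.64 (-1.82 ± 0.095, adjusted p = 0.000337). Abcb5, a membrane transporter gene, fell by 0.95 ± 0.12 (adjusted p = 0.00989), a call that ended without control replicate 3 (0.0508). Spz1 (-0.60, 0.0534), Ubtfl1 (-0.68, 0.136), Obox5 (-0.17, 0.460) and Obox6 (0.20, 0.329) did not pass.

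Listed genes that appear only beside other symbols were added after the data were seen. Outside the members they comprised 25 probe sets (22 distinct profiles), of which 20 fell and 0 rose (limma, with the counts 20 and 0 at an unadjusted p under 0.05), with a median difference of -0.87. The listed AA792892 is read only by 10 several-symbol probe sets that are members, and these are not counted here. None of those 10 was called in either direction. The largest fall was in the probe set of Gm4027 and BB287469 (-2.44 ± 0.24, limma adjusted p = 0.00371). The 3 probe sets of Duxf3, the Dux transcription factor gene, and Gm9919 fell by 0.55, 0.52 and 0.50 (adjusted p = 0.0211, 0.0272 and 0.0258). The first of them read 6.50, 6.48 and 6.29 in control and 5.80, 5.91 and 5.92 in overexpression. The probe set shared by the Trim43 genes fell by 0.48 (0.0467), while the 5 probe sets of the Obox group, between -0.19 and 0.04, did not pass.

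Most regulators of the state with a probe set of their own did not pass the test. Of 7 inducers 4 have such a probe set. Duxf3 is also on the list of inducers, and the 3 probe sets it shares with Gm9919, given above, were all called lower. Nelfa, a subunit of the negative elongation factor, read 9.06, 9.09 and 9.09 in control and 8.64, 8.52 and 8.61 in overexpression and fell by 0.49 ± 0.067 (limma adjusted p = 0.0130). The call was lost when any 1 control array or overexpression replicate 2 was left out (adjusted p from 0.0519 to 0.0699). Dppa2 and Dppa4, which activate Dux in ES cells, differed by 0.04 (0.775) and 0.10 (0.476), and Tbx3, a T-box factor, by 0.14 (0.472). Dppa2 and Dppa4 have 2 probe sets each, of which only the brighter is given. Of 25 repressors 24 were measured, with a median difference of -0.08, and 1 rose and 0 fell (limma, with 1 higher and 5 lower at an unadjusted p under 0.05). Ehmt2, a histone H3 lysine methyltransferase, read 8.28, 8.24 and 8.27 against 8.76, 8.63 and 8.69 and rose by 0.43 ± 0.068 (adjusted p = 0.0212). Leaving out any array except overexpression replicate 1 ended that call (0.0541 to 0.0966).

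**Figure D4:**
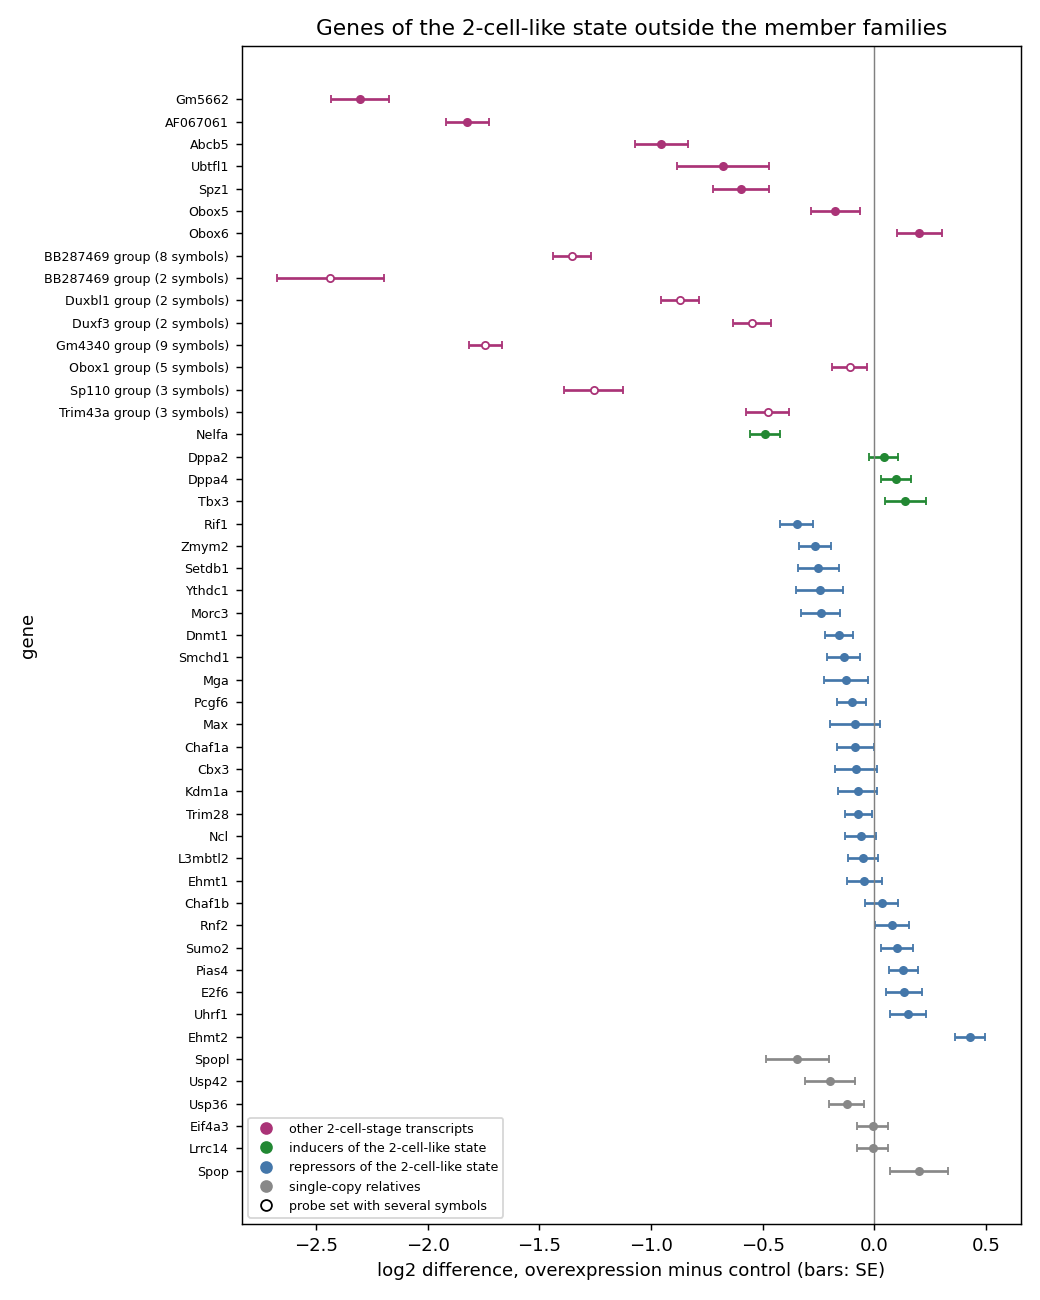
Log2 difference (overexpression minus control, points) with its SE (bars, n = 3 arrays per group) for genes outside the member families, by list. Open points are the brightest probe set of each group of listed genes measured only with other symbols. Gm5662, AF067061 and the BB287469, Gm4340 and Sp110 groups lie lower than -1, and the repressors lie between -0.35 and 0.43.

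Of 14 oocyte genes 0 passed (limma, with 2 lower and 2 higher at an unadjusted p under 0.05), and the smallest p belonged to Zp3, a zona pellucida gene, which differed by 0.58 ± 0.13 (adjusted p = 0.0643). Of 25 PRAME relatives listed under other names 14 have Pramel symbols in the reference and belong to the member families. Of the others 3 have a probe set of their own, of which 0 passed and 0 had an unadjusted p under 0.05, C130073F10Rik at -0.19 (0.528), Oog3 at 0.34 (0.530) and Oog4 at 0.00. Lrrc14, a single-copy leucine-rich repeat relative, differed by -0.01 (0.974).

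Neighbours of the member genes, a set also added after the data were seen, were read to show whether differences extended along the chromosome. Within 5 protein-coding places of a member, 136 single-symbol genes were measured, and 7 fell, 8 rose and 121 did not pass, with a median difference of -0.03. Over all probe sets, 2.01% were called lower and 3.04% higher. Beside Tcstv3, BC147527 fell by 1.37 ± 0.088 (limma adjusted p = 0.000750) and AF067061 lies 2 places away. Beside Tdpoz7, Spopfm2 fell by 1.12 (0.00222), and beside Pramel49, Gm7982 read 8.12, 7.95 and 7.95 against 6.34, 6.35 and 6.20 (-1.71, 0.000302). Gm11545 beside Tmem92 fell by 0.68 (0.0121), and Ak4, an adenylate kinase gene 4 places from Pramel17, by 0.74 (0.00241). Probe sets of neighbours were matched by symbol, and where they lie in the genome, that of Ak4 included, was not checked. Gm5662 lies beside Pramel51. Both Gm5662 and AF067061 are on the list of other 2-cell-stage transcripts above, so they are not neighbours of an unrelated kind. Members were left out of the neighbours by symbol alone. BC147527, Spopfm2 and Gm7982 may therefore also be relatives of the members, which was not analysed. In the opposite direction, S100a10, a calcium-binding protein gene beside Tdpoz2, rose by 1.16 (0.000478) and Emp1, 2 places from Eif4a3l1, rose by 1.76 (0.000141). Near Zfp352, 3 of 10 measured neighbours rose, Cdkn2b by 1.51, Cdkn2a by 0.88 and Mtap by 0.50. The remaining rises were in S100a11 (1.34) near Tdpoz2, Col1a1 (1.34) near Tmem92 and Septin11 (0.53) near Pramel33. Of 26 measured neighbours of Usp17l genes 0 passed, and of 9 of Zscan4 genes 0 passed (limma, with 0 and 1 at an unadjusted p under 0.05). Control means of these neighbours were low, from 2.51 to 5.11 beside Usp17l genes and from 2.24 to 4.18 beside Zscan4 genes. The median level of all probe sets was 5.57. A fall could hardly show at such signals, so these zeros do not tell whether differences extend along the chromosome there.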

How the data were processed

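RNA from 6 samples was hybridised to 1 Affymetrix whole-transcript array each. The values are log2 signals from robust multi-array average (RMA) processing by the authors, per the submitters' processing notes. RMA makes the distributions of the arrays alike, so that a shift common to most genes largely drops out of the values. No version of it is given in the sources used here. The deposited table holds 35556 probe sets, with array medians from 5.54 to 5.62. Platform annotation of 2016 gave 1 symbol for 21789 probe sets, several for 1621 and none for 12146. RefSeq tables of GRCm38.p6 gave names, gene order and promoters (55 of members, 32851 in all).

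Every probe set was a row of 1 two-sided limma fit (version 3.58.1, R 4.3.3) by lmFit with eBayes moderation, 3 arrays against 3 and no covariate, with p-values adjusted by the Benjamini-Hochberg method over all 35556 and a threshold of 0.05. Differences are overexpression minus control, with the SE of that fit. For a listed gene the brightest probe set carrying its symbol alone was used. The members, lists, tests and the rule for named genes were chosen with earlier results of these data known. The rule named Tmem92, Zfp352 and Eif4a3l1, in each family the 5 largest falls, 3 largest rises and 2 smallest differences, and in each list the 3 largest calls each way or the smallest p. It also named all inducers and single-copy relatives. Other genes given with values were chosen after their values were seen.

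Replicate numbers did not pair the samples (correlations of same-numbered deviations 0, -0.054 and -0.087), so no block was used. The labels give no batch, and all 6 arrays were kept. On simulated data for this comparison over 35556 probe sets (5 runs with 200 changed), the fit recovered 89.2% of log2 falls of 2 and 60.4% of falls of 1, but 16% of falls of 0.5 and 1.2% of falls of 0.3, with 5.11% false calls. Alternatives were centring, quantile normalization, filters at the 30th percentile and median, array weights, a trended, robust prior for the variance, a replicate block, leaving out each array, and other choices of probe sets. Plots used matplotlib 3.10.9 (Python 3.11.15).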

Additional observations from a re-analysis of the deposited data

How the results depend on the processing

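For 28 named member probe sets, 351 of 353 differences under the alternatives stayed within the SD between replicates. Most could not do otherwise, so this count is no check of robustness. Filters, the prior and the block leave a difference unchanged, and leaving out 1 of 3 arrays cannot move it past that SD. Quantile normalization moved 2 Zscan4 probe sets to -1.80. Reversals were counted only for probe sets called in the main fit, with 0 found. Uncalled differences near 0, as in the Pramel3 group, can change sign without 1 array. The 48 members called lower became 31 with probe sets under the median left out (34 members remain there), 13 with single-symbol probe sets alone and 22 with 1 probe set an annotation, and 30 to 48 without 1 array. The 1 call of a higher member became 0 to 1 without 1 array. The median difference of members, -0.70, became -1.03 and -1.21 under the filters at the 30th percentile and the median, -0.42 with single-symbol probe sets, -0.44 with 1 probe set an annotation and -0.52 with identical profiles once, and lay between -0.82 and -0.60 without 1 array. Genes called lower in the lists of other 2-cell-stage transcripts, PRAME relatives, inducers, repressors, single-copy relatives and oocyte genes, marker lists not counted, were 4 in number. They numbered 7 with a trended and robust prior, 24 with several-symbol probe sets outside the members added and 2 to 4 without 1 array. Those called higher (1) numbered 2 with centring, quantile normalization, either filter, the trended prior or array weights, and 0 to 2 without 1 array. The Prmt6 difference, 0.50 in the main fit, passed in the 3 settings given above, and lay between 0.37 and 0.64 without 1 array. Over the whole table, 714 lower and 1080 higher calls became 542 and 1385 with centring, which moved the split between directions, 1214 and 1826 with probe sets under the median left out, and 202 to 582 and 420 to 751 without 1 array. Detection of low signals was not analysed here, which limits what dim members can show.

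With the replicate number as a block, a pairing the data do not bear out, 34 of the 48 members stayed called lower, 0 were called higher, and 2 and 0 genes of the same lists were called lower and higher, where the fit also has fewer residual degrees of freedom. The calls of Abcb5 (adjusted p = 0.0675), Nelfa (0.0967) and Ehmt2 (0.115) ended there (limma), and calls over the whole table numbered 173 lower and 326 higher.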
